A study of Mus musculus with 8 samples.

Results

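The 3 peroxisome proliferator-activated receptors (PPARs) and the 3 coactivators of the PGC-1 family were taken as a group of 6 mouse genes: Ppara, Ppard, Pparg, Ppargc1a, Ppargc1b and Pprc1. They were chosen by symbol, and all 6 were found among the 21887 protein-coding genes of the RefSeq annotation of GRCm38.p6, the same build as the mm10 positions of the files. A peak was assigned to a gene when its centre lay in the gene span or within 5 kb of it. By this rule the 6 genes held 30 of 30175 Qki-5 and 27 of 26404 PPARb peaks in differentiated oligodendrocytes, and 30 of 30037 peaks of HA and 10 of 13267 of RNA polymerase II (Pol II). In oligodendrocytes isolated from brain they held 5 of 8375 Qki-5 and 2 of 1391 PPARb peaks.

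PPARs are nuclear receptors that bind fatty acids and their derivatives. They sit on DNA as heterodimers with retinoid X receptors (RXRs) and switch genes of lipid uptake, oxidation and storage. Ppara encodes the receptor best known for fatty acid oxidation in the liver, Pparg the receptor that drives fat cell formation, and Ppard the widely expressed PPARb, also called PPAR-delta. PGC-1 proteins do not bind DNA themselves but dock on nuclear receptors and other factors and raise transcription of mitochondrial and oxidative genes. Oligodendrocytes make myelin, a membrane rich in lipid.

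Binding was measured by chromatin immunoprecipitation with sequencing (ChIP-seq). Differentiated oligodendrocytes came from neural stem cells of an FvB/C57BL6 hybrid background with introduced PPARb, which the HA antibody recognises by its tag, at passage 7. The differentiation medium was Neurobasal with B-27, to which the growth factor IGF-1 (100 ng/mL), the thyroid hormone T3 (50 ng/mL) and GlutaMAX-I (2 mM) had been added. Isolated oligodendrocytes came from C57BL6 mouse brains by O4 magnetic beads, at passage 0, with no introduced PPARb named in their labels. Antibodies against Qki-5 (the nuclear form of the RNA-binding protein Quaking), PPARb, HA and Pol II were used in differentiated cells, and those against Qki-5 and PPARb in isolated cells. The sources used here do not give the promoter that drove the introduced PPARb, the number of lines or animals, or the age of the animals. Every differentiated-cell library thus came from cells with the introduced receptor, and no differentiated cells without it were part of the design.

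There was 1 library for each antibody and cell kind, so no value here has a replicate error and no difference was tested. Tag directory names in the headers carry the word merge for Qki-5 of differentiated cells and for the input of isolated cells, so these may pool several runs or samples, which no source used here describes. Depth ranged from 12624236 tags (HA) to 24880851 tags (Pol II). Tags in peaks made up 1.39% to 4.62% of the differentiated-cell libraries, 0.849% of the Qki-5 library from isolated cells and 0.116% of their PPARb library. Peak height is the authors' tag count scaled to 10000000 tags per library. It is given below with a 95% exact Poisson interval of the tag number, which covers counting error only. Median heights differ between the lists, so heights of different antibodies are not on one scale. Of 11 oligodendrocyte marker genes, 4 had a Pol II peak in differentiated cells (Mbp, Cnp, Olig1 and Myrf), and Mog, Mag and Mobp had no peak in any of the 4 differentiated-cell lists. Of 5 astrocyte markers, 3 had a Pol II peak and 5 a Qki-5 peak there, as had 3 and 4 of 5 neuron markers. Among all protein-coding genes 47.5% had a Pol II peak in these cells and 61.2% a Qki-5 peak, so such small counts only describe. Oligodendrocyte precursor markers had Qki-5, PPARb and HA peaks at 2 of 2 (HA 80.8 at Pdgfra) and Pol II at 0 of 2. Qki-5 was at 2 of 4 endothelial and 0 of 5 microglia markers, Pol II at 1 and 0. Of 4 markers of neural stem cells, from which the cells derive, 3 had a Pol II peak (Sox2 at 19.3) and 2 a Qki-5 peak. In isolated cells, Qki-5 peaks were at 10 of the 11 oligodendrocyte markers, at 0 of 5 astrocyte, 0 of 5 neuron and 0 of 5 microglia markers, and at 4 of 4 endothelial markers, while the PPARb list had Cx3cr1 of microglia and 3 oligodendrocyte markers. Isolated-cell Qki-5 peaks were at 35.7% of all protein-coding genes and PPARb peaks at 7.57%. The part of other cell types in the results below was not tested.

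Peaks reached into the 300-base window around the listed RefSeq start at 3 of the 5 genes for which that window was at hand, and these 3 sequences are shown because the start-site results rest on them. Each runs 5′ to 3′ on the plus strand, from 250 bases before to 50 bases after the start, as RefSeq gives it for GRCm38.p6. Capitals mark matches to a motif of the set named below.
Ppara, chr15:85735526-85735825: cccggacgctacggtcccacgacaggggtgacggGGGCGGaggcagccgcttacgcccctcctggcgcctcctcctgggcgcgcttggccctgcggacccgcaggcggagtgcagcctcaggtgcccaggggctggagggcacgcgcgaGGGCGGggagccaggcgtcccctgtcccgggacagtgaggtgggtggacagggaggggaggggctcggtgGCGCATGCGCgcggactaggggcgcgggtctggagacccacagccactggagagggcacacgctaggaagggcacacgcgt
Ppard, chr17:28232504-28232803: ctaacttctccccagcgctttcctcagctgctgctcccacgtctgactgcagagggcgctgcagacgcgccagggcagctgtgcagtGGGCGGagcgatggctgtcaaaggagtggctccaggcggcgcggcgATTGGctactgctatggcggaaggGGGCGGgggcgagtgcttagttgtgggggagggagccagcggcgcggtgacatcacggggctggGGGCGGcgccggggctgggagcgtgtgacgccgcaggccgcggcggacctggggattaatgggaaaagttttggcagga
Pprc1, chr19:46056289-46056588: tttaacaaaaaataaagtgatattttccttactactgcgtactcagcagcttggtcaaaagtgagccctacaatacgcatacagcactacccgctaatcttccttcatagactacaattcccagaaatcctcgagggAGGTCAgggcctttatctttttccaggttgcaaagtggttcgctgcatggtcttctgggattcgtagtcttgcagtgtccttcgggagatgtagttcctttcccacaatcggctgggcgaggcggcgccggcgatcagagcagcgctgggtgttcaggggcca
The motifs searched on both strands were the nuclear receptor half-site AGGTCA, the DR1 element to which PPAR and RXR bind together (a direct repeat of that half-site with 1 base between), the Quaking recognition core written as DNA (ACTAAC), the palindromic NRF1 element, the GC box GGGCGG, the box with the letters CCAAT, the E-box CACGTG, the cyclic AMP response core TGACGTCA and the ETS core CCGGAAG. A half-site lies inside every DR1, and no other pattern contains another.

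The DR1 element was found in 0 of the 7 windows of the 5 genes, and in 0.0396% of all 32851 windows of this length. ACTAAC was in 0 of 7 and in 6.09% of all, and the E-box, cyclic AMP and ETS patterns, in 7.15%, 1.79% and 8.86% of all, were likewise in 0 of 7. The half-site was in 3 of 7 (16.3% of all): once in the Pprc1 window, at bases 138 to 143 counted from the 5′ end, and in 2 windows of Pparg. At Pprc1 it lay under the Qki-5 peaks of both cell kinds and under neither the PPARb nor the HA peak of differentiated cells. The Ppara window held the NRF1 element at bases 220 to 229 (0.971% of all windows have it) outside every called peak, and GC boxes. The Ppard window held 3 GC boxes and a CCAAT box in reverse. GC boxes were in 4 of 7 windows and 35.7% of all, and CCAAT in 3 of 7 and 37.4%. These are matches of letters, and an absent match says only that those letters are not in the window.

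All 6 genes carried peaks of Qki-5, PPARb and HA in differentiated cells, and they differed by gene in height, in place and in what was seen in isolated cells. The background is high: 61.2% of all protein-coding genes had a Qki-5 peak by the same rule, 57.3% a PPARb peak and 60.6% an HA peak. Long genes collect more peaks, and 5 of the 6 genes span over 50 kb. Among genes of at least 50 kb the shares were 82.1%, 77.3% and 81.3%, so 6 of 6 is read against a high share. Pol II peaks were at 5 of 6 genes, against 47.5% of all genes and 62.5% of long ones, and Ppargc1b was the gene without. In isolated cells Qki-5 was at 3 of 6 (Ppara, Ppard and Pprc1), against 35.7% of all genes and 45% of long ones, and PPARb at 2 of 6 (Ppard and Pprc1), against 7.57% and 9.34%.

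**Figure D1:**
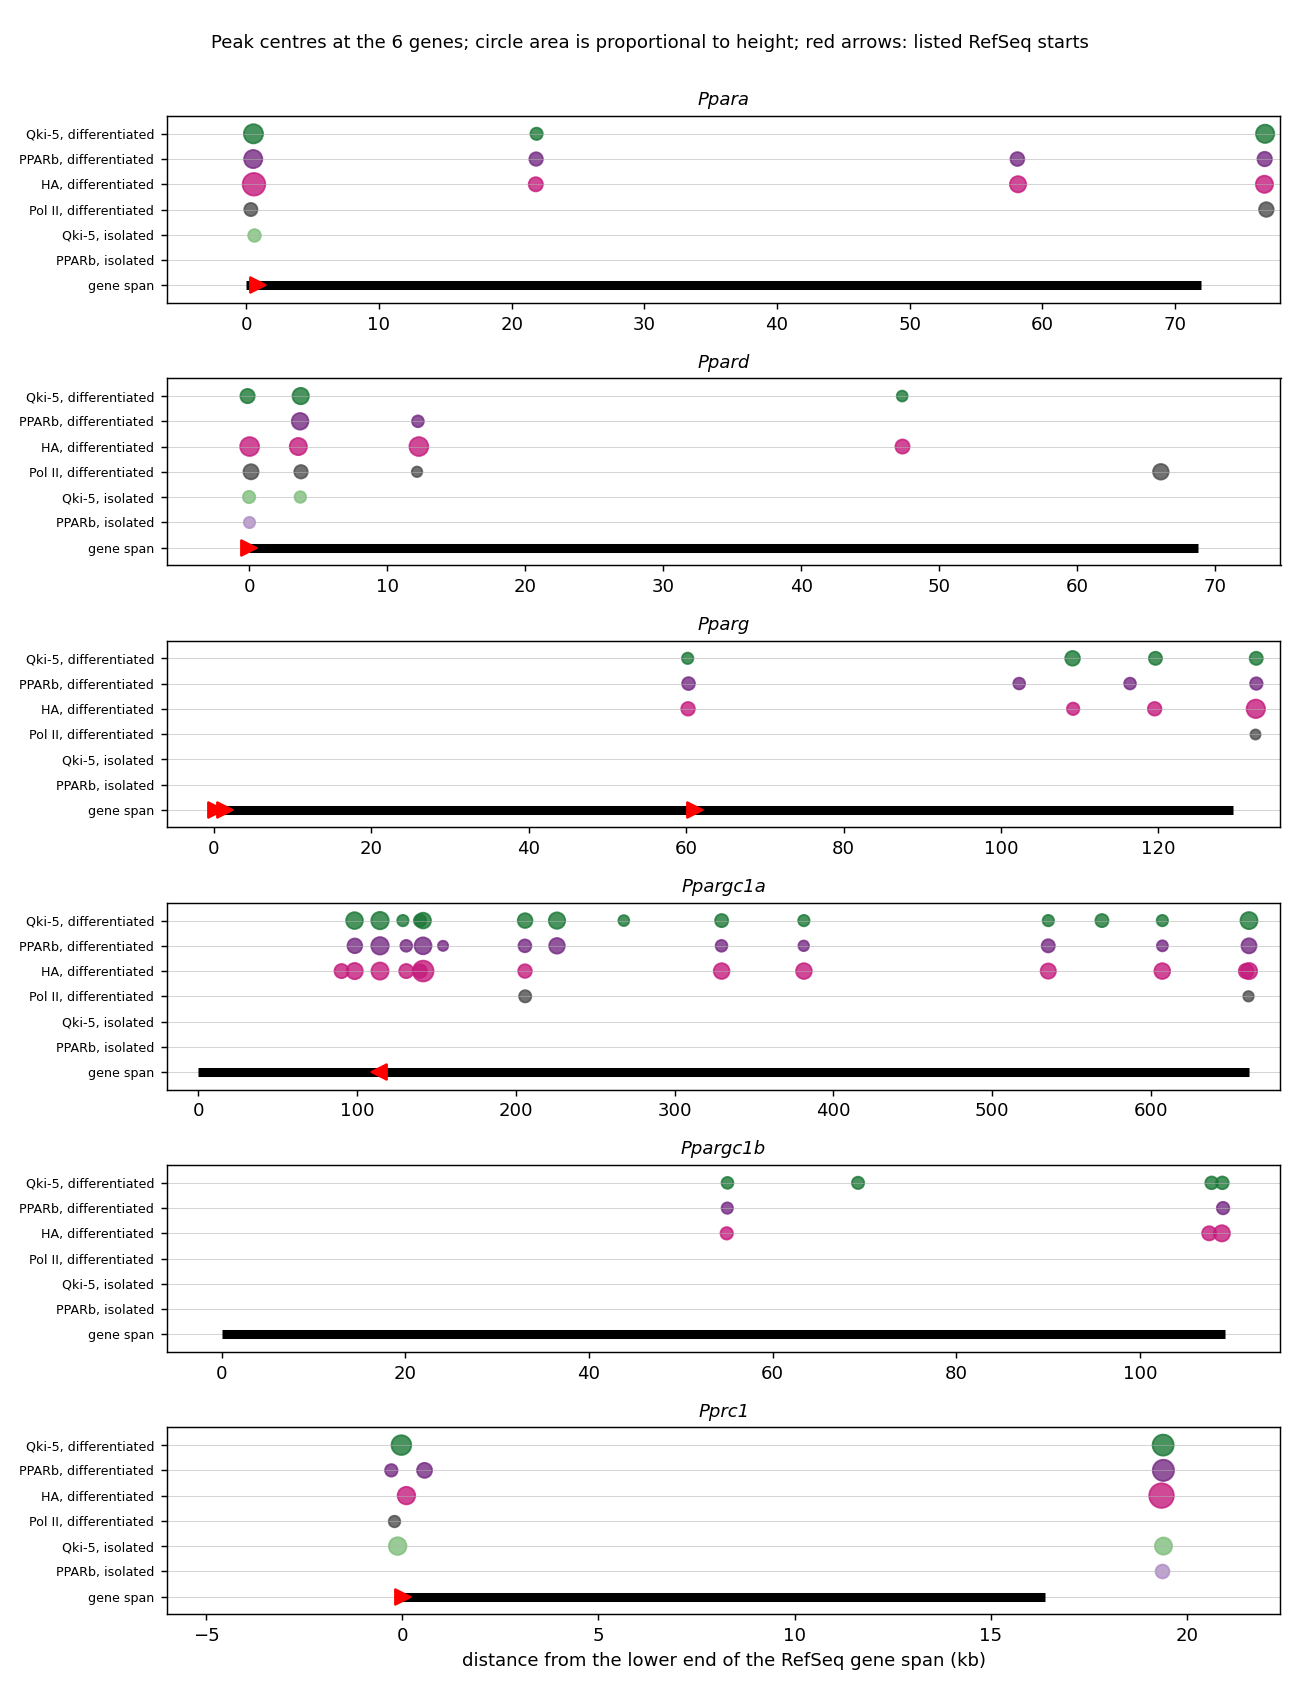
Centres of all peaks at the 6 genes, 1 row per library, by distance in kb from the lower end of the RefSeq span. Circle area is proportional to peak height in tags per 10000000, black bars are gene spans and red arrows the listed RefSeq starts with their direction. Circles of Qki-5, PPARb and HA stand one above the other at many places, and the isolated-cell rows are filled only at Ppara, Ppard and Pprc1.

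Ppara, the PPAR-alpha gene (chromosome 15, 85734910 to 85806851), carried its strongest signal just upstream of its listed start. Peaks of 5 libraries overlapped there, between 85735154 and 85735587, with centres 289 to 522 bp before the start. In differentiated cells the HA peak was the tallest at 26.1 (18.0 to 36.7). Qki-5 stood at 18.8 (13.02 to 26.3), PPARb at 16.9 (11.97 to 23.2) and Pol II at 8.84 (5.54 to 13.4). In isolated cells the Qki-5 peak stood at 8.24 (4.89 to 13.03), and no PPARb peak was called. The PPARb peak ranked 2034 in its list and the HA peak 2243, so that 91.2% and 91.5% of their lists were lower, while the Pol II peak equalled its list's median of 8.84. The PPARb peak was listed at 64.2-fold over input, a ratio that rests on 0.5 input tags, the lowest value in that list.

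The body of Ppara held weaker sites. Some 20.95 to 21.01 kb from the start, Qki-5, PPARb and HA overlapped at 7.74, 9.35 and 10.3, all below the median heights of their lists (11.1, 9.79 and 13.5). At 57.2 to 57.3 kb from the start, PPARb at 9.79 and HA at 13.5 overlapped without Qki-5. The last site, 4.79 to 4.94 kb past the end of the span, had all 4 differentiated-cell peaks, led by Qki-5 at 17.1, with HA at 15.1, Pol II at 10.9 and PPARb at 10.7. Its centres lay 5 to 89 bp from the nearer edge of the span of Cdpf1, the neighbouring gene, so it is nearer to that gene than to Ppara. Whether that edge is the start of Cdpf1 was not analysed here.

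Ppard, the gene of PPARb itself (chromosome 17, 28232754 to 28301469), was the only one of the 6 with peaks of both Qki-5 and PPARb from isolated cells at its start. There the isolated-cell heights were 7.79 (4.54 to 12.5) for Qki-5 and 6.53 (3.37 to 11.4) for PPARb, the latter 12 tags and of rank 1199 in a list of 1391. In differentiated cells the start held Qki-5 at 10.5 (6.33 to 16.4), HA at 18.2 (11.5 to 27.3) and Pol II at 11.7 (7.81 to 16.7), and no PPARb peak was called. An HA peak was thus called at the Ppard start without a PPARb peak in the same cells, while the PPARb antibody gave one in isolated cells. The false discovery rate set a threshold of 13 tags, a height of 5.79, in the differentiated-cell PPARb library, though the list also holds peaks of 12 tags (5.34). A missing peak there shows only that none was called at this depth.

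A second Ppard site, 3.54 to 3.73 kb inside the gene (28236193 to 28236588), was shared by 5 libraries. All 4 differentiated-cell antibodies met here, HA at 15.1 (9.06 to 23.5), PPARb at 14.2 (9.74 to 20.1), Qki-5 at 13.8 (8.95 to 20.4) and Pol II at 9.24 (5.86 to 13.9). The isolated-cell Qki-5 peak was 6.87 (3.85 to 11.3). The PPARb peak was the taller of the gene's 2, with 81.3% of the list lower. Some 12.1 to 12.3 kb into the gene, HA at 18.2 overlapped PPARb at 7.12 and Pol II at 5.63, without Qki-5. A site at 47.3 kb paired HA at 10.3 with Qki-5 at 6.08, and no PPARb peak was called there.

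The tallest Pol II peak of the whole group stood alone near the other end of Ppard. It lay at 28298699 to 28298899, 2.67 kb from the end of the span, at 12.5 (8.47 to 17.7), and overlapped no other peak. Its fold over input was 4.73, close to the 4-fold that a peak had to reach, with 5 input tags, the most that any of the group's 10 Pol II peaks had. Whether this peak lies on an exon was not analysed here. Differentiated cells also carried introduced PPARb, the product of this gene, and whether tags from it add to the Ppard peaks was not tested. Ppard had 4 Pol II peaks in all, and as many or more were found at 0.973% of all protein-coding genes and at 3.60% of genes of at least 50 kb.

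Pparg, the PPAR-gamma gene (chromosome 6, 115360879 to 115490404), had no peak near its first 2 listed starts in any library. Its 6 sites lay from 60.2 kb into the span onwards, and none held an isolated-cell peak. Close to the third start, at 115422066, Qki-5, PPARb and HA overlapped with centres 878 to 989 bp upstream. Heights there were 6.64 (3.43 to 11.6), 8.46 (5.09 to 13.2) and 9.51 (4.91 to 16.6), each from 12 to 19 tags and in the lower part of its list. Further inside, Qki-5 and HA overlapped at 11.1 with 7.92 and at 8.85 with 9.51, and PPARb had 2 peaks of its own, both at 7.12. Past the gene end by 2.77 to 2.93 kb, peaks of every differentiated-cell library met, led by HA at 17.4 (10.9 to 26.4), with Qki-5 at 8.85, PPARb at 8.01 and Pol II at 5.22. That Pol II peak was the gene's only one, and its 13 tags were below the caller's threshold of 14 for that library.

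Ppargc1a encodes PGC-1-alpha, an inducible coactivator of mitochondrial and oxidative genes, and its RefSeq span (chromosome 5, 51454249 to 52115853) is by far the longest here, at 661.6 kb. It held 14 peaks of Qki-5, 13 of HA, 12 of PPARb and 2 of Pol II, in 19 sites, and none from isolated cells. At least as many Qki-5 peaks were found at 0.183% of all genes, and as many PPARb peaks at 0.265%. Per length, however, the numbers were ordinary: 2.08 Qki-5 and 1.79 PPARb peaks per 100 kb, against 2.15 and 1.91 over the windows of all protein-coding genes.

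The strong Ppargc1a sites were few. One lay 884 to 895 bp upstream of the listed start, which is on the minus strand inside the span at 51567725. There the 3 centres were within 11 bp of each other, with Qki-5 at 15.5 (10.3 to 22.4), PPARb at 15.6 (10.8 to 21.7) and HA at 15.1 (9.06 to 23.5). Of their lists, 75.8%, 87.1% and 55.8% of peaks were lower, in the same order. Folds over input were 5.71 to 5.91, with 5 input tags under the PPARb peak. A site 28.0 to 28.1 kb upstream of the listed start had the tallest HA peak of the gene at 22.2 (14.7 to 32.1), with PPARb at 14.7 (10.1 to 20.6) and Qki-5 at 12.7 (8.06 to 19.1). Input was lower there, with 2 tags under the PPARb peak, and the HA fold was 21.1.

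Because Ppargc1a is on the minus strand, the upper end of its span is the upstream end. Some 153 to 181 bp beyond that end, Qki-5 at 14.9 (9.84 to 21.7), PPARb at 11.6 (7.56 to 17.0) and HA at 13.5 (7.84 to 21.6) overlapped. Their folds over input of 28.4, 22.0 and 51.1 rest on at most 1 input tag each. A Pol II peak of 5.63 (3.08 to 9.44) lay 148 bp inside that end, next to these peaks without overlapping them. No Pol II peak was called at the listed start. The gene's other Pol II peak, at 7.64, shared a site 92.2 to 92.4 kb upstream of the listed start with Qki-5 at 11.1, PPARb at 8.46 and HA at 9.51. One more site, with Qki-5 at 13.8 and PPARb at 12.5 whose centres were 1 bp apart, had no HA peak. The other sites were of low height, with PPARb between 5.34 and 8.90 wherever it was called, apart from 11.1 at a site 14.98 to 15.2 kb downstream of the listed start, where Qki-5 stood at 14.4 and HA at 13.5.

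Ppargc1b encodes PGC-1-beta, the closest relative of PGC-1-alpha, and its span (chromosome 18, 61291445 to 61400756) had the lowest of the 6 tallest peaks for Qki-5, PPARb and HA. Qki-5 had 4, from 7.19 to 8.30, PPARb 2, at 6.68 and 8.01, and HA 3, at 7.92, 10.3 and 13.5 (7.84 to 21.6). None was above the median height of its list. The tallest lay 255 to 387 bp inside the upper end of the span, where Qki-5, PPARb and HA overlapped at 8.30, 8.01 and 13.5. Mid-gene, 54.2 to 54.3 kb from that end, the same antibodies met again at 7.19, 6.68 and 7.92. No Pol II peak and no isolated-cell peak was called at this gene.

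Pprc1 encodes PRC, the PGC-1-related coactivator that is induced when resting cells are stimulated to grow, and it is the shortest of the 6 (chromosome 19, 46056526 to 46072909). Its start carried Qki-5 at 19.9 (13.9 to 27.6) in differentiated and 16.0 (11.2 to 22.3) in isolated cells. In differentiated cells this was close to the 18.8 at the Ppara start, and in isolated cells the peak ranked 601 of 8375. HA stood at 15.8 (9.68 to 24.5) and Pol II at 6.83 (3.98 to 10.9). PPARb had a peak on each side, one of 8.01 (4.75 to 12.7) centred 289 bp upstream and one of 11.6 (7.56 to 17.0) centred 558 bp downstream of the start, and neither overlapped the Qki-5 peak between them.

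The tallest site assigned to Pprc1 lay 2.97 to 3.02 kb past its end. It was 31 to 81 bp from the nearer edge of the span of the neighbouring gene Nolc1, which encodes a nucleolar protein. Whether that edge is the start of Nolc1 was not analysed here. In differentiated cells HA reached 30.9 (22.0 to 42.2), PPARb 23.1 (17.3 to 30.3) and Qki-5 22.7 (16.3 to 30.8). In isolated cells Qki-5 was 15.1 (10.4 to 21.2) and PPARb 9.79 (5.80 to 15.5). The PPARb peak ranked 255 of 26404 in differentiated and 196 of 1391 in isolated cells. No Pol II peak was called at this site. It is nearer to Nolc1 than to Pprc1.

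**Figure D2:**
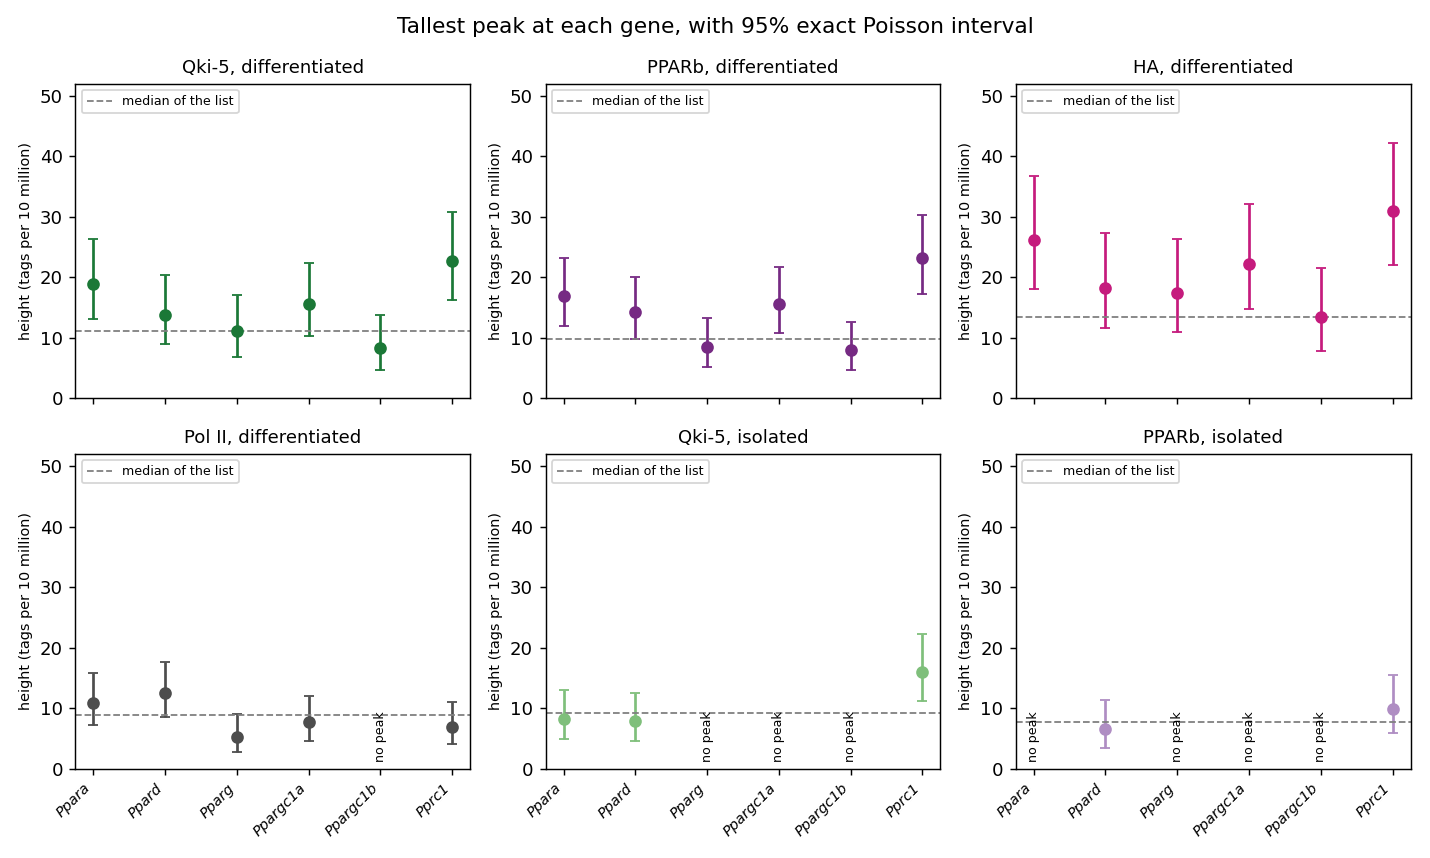
Height of the tallest peak at each gene (vertical axis, tags per 10000000) with its 95% exact Poisson interval, in 6 panels by library. Dashed lines are the median peak height of each list. In the Qki-5, PPARb and HA panels of differentiated cells Pprc1 is highest, then Ppara and Ppargc1a, and Ppargc1b is lowest.

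The order of the genes by their tallest peak was the same in the Qki-5, PPARb and HA lists of differentiated cells: Pprc1, Ppara, Ppargc1a, Ppard, Pparg and Ppargc1b. All 3 lists share the input of the differentiated cells. In each of them the intervals of neighbours in the order overlapped. Those of Pprc1 and Ppargc1b did not, at 22.7 (16.3 to 30.8) and 8.30 (4.64 to 13.7) for Qki-5, at 23.1 (17.3 to 30.3) and 8.01 (4.75 to 12.7) for PPARb, and at 30.9 (22.0 to 42.2) and 13.5 (7.84 to 21.6) for HA. Without the site next to Nolc1 the tallest Pprc1 peaks were 19.9 (13.9 to 27.6) for Qki-5, 11.6 (7.56 to 17.0) for PPARb and 15.8 (9.68 to 24.5) for HA. Pprc1 then still led for Qki-5, but stood below Ppara, Ppargc1a and Ppard for PPARb, and below those and Pparg for HA. Its intervals for PPARb and HA then overlapped those of Ppargc1b, and the Qki-5 interval did not. Pparg also depended on single sites: with peaks in the gene span only, its tallest HA peak was 9.51, below the 13.5 of Ppargc1b, and at 8-fold over input its tallest Qki-5 peak was 6.64, below 7.19 at Ppargc1b. The Pol II order differed, with Ppard at 12.5, Ppara at 10.9, Ppargc1a at 7.64, Pprc1 at 6.83 and Pparg at 5.22, and all these intervals overlapped with that of the last.

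As a group the peaks were of modest height. Of the 30 Qki-5 peaks, 10 were above the median of their list, as were 10 of 27 PPARb, 10 of 30 HA and 4 of 10 Pol II peaks. Heights ran from 6.08 to 22.7 with a median of 8.85 for Qki-5 (list median 11.1), from 5.34 to 23.1 with a median of 8.46 for PPARb (9.79), and from 7.92 to 30.9 with a median of 12.7 for HA (13.5). Many lay near the limit of calling: 13 of the Qki-5, 9 of the PPARb and 11 of the HA peaks had at most 3 tags more than the caller's threshold of 12, 13 and 10 tags. The 1000 tallest peaks are most of the 1391 isolated-cell PPARb peaks, but a small part of the 13267 to 30175 in each differentiated-cell list. Among the 1000 tallest peaks of each list the 6 genes had 1 PPARb and 1 HA peak of differentiated cells, and 2 Qki-5 and 1 PPARb peak of isolated cells. All of these were at the site next to Nolc1, except the isolated-cell Qki-5 peak at the Pprc1 start.

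Joining peaks that overlapped by at least 1 bp, directly or in a chain, gave 42 sites over the 6 genes. Qki-5, PPARb and HA of differentiated cells were all present at 19 of them, and Pol II with all 3 at 6. Those 6 are at the starts of Ppara and Pprc1, the second site of Ppard, the sites past the ends of Ppara and Pparg, and 1 distal site of Ppargc1a. At the Pprc1 start the peaks were joined only in a chain, and the PPARb peak overlapped neither the Qki-5 nor the HA peak of differentiated cells. Another 14 sites had a peak from a single library: 5 from Qki-5, 4 from PPARb, 3 from HA and 2 from Pol II. Of these single-library sites 7 were in Ppargc1a.

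**Figure D3:**
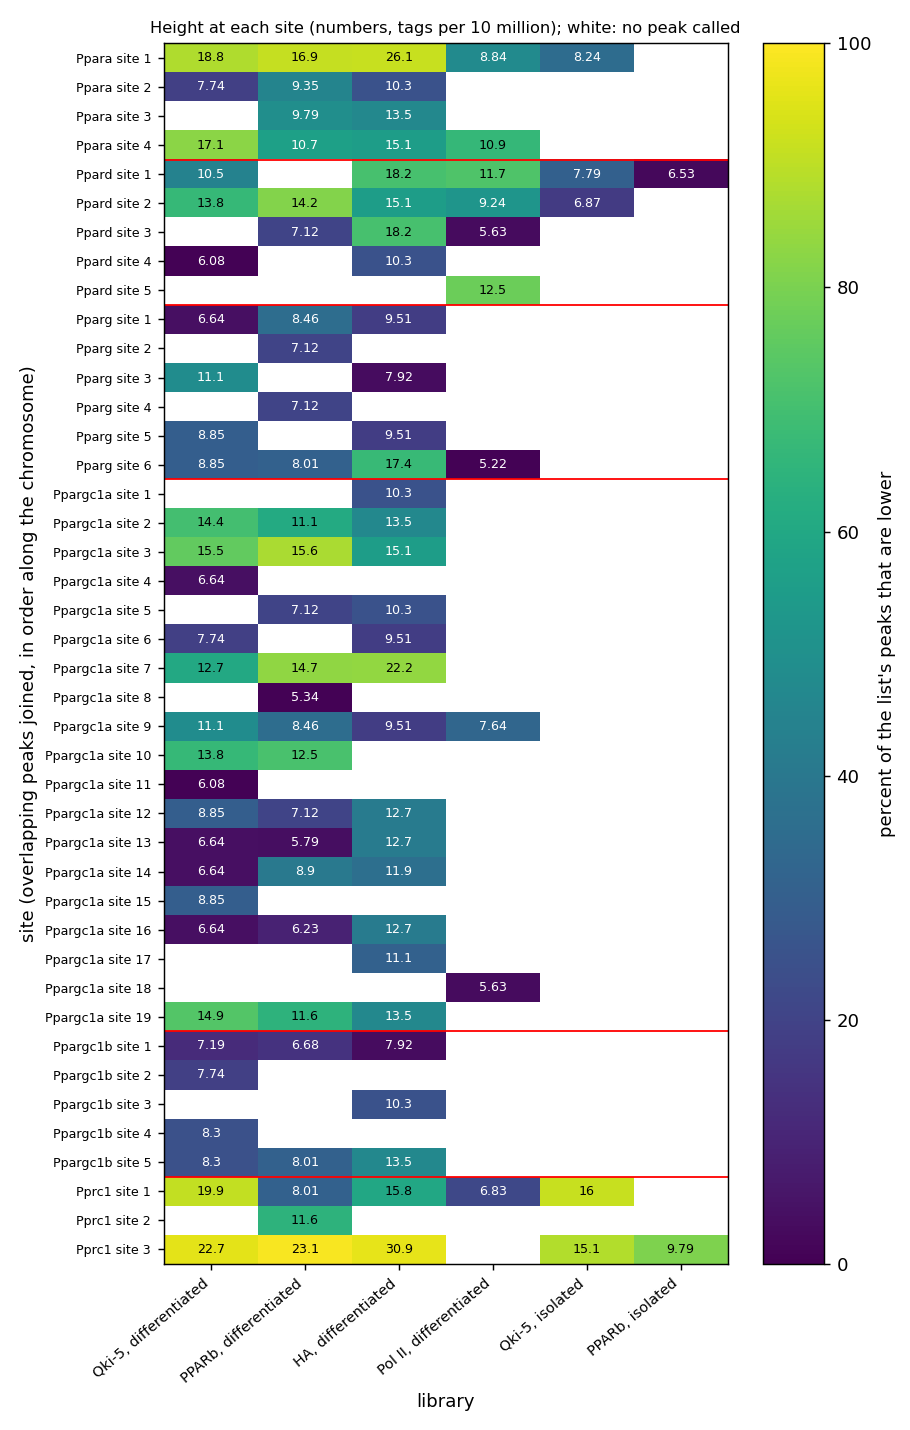
The 42 sites as rows, in order along each chromosome and separated by gene with red lines, and the 6 libraries as columns. Numbers are heights in tags per 10000000, colours the percent of that list's peaks that are lower, and white cells have no peak. The isolated-cell columns hold 7 values, at 5 sites of Ppara, Ppard and Pprc1.

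The antibodies met at these genes about as often as over the whole lists, with more overlap of Qki-5 with HA and less with Pol II. Of the 30 Qki-5 peaks, 19 (63.3%) overlapped a PPARb peak, against 65.1% of all Qki-5 peaks, and 24 (80.0%) overlapped an HA peak, against 66.6%. Of the 27 PPARb peaks, 21 (77.8%) overlapped HA, against 73.5%. Pol II met fewer: 6 of 30 Qki-5 peaks (20%, against 32.5%) and 7 of 27 PPARb peaks (25.9%, against 36.5%). Peaks of 1 gene share their surroundings and are not independent, so these shares are a description. By gene, overlapping Qki-5 and PPARb peaks were at 6 of 6, against 51.3% of all genes and 70.1% of genes of at least 50 kb. Overlapping PPARb and HA peaks were also at 6 of 6, against 50.3% and 69.1%. Pprc1 counted in both only through the site next to Nolc1. With peaks in the gene span only, or within 1 kb of it, both overlaps were at 5 members.

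At the listed starts the genes differed from each other. Within 1 kb of a listed start, Qki-5 and HA were found at all 5 genes for which a start was at hand, against 49.4% and 49.8% of all genes with one. PPARb was found at 4, Ppard being the exception, against 45.2%, and Pol II at 3, Ppara, Ppard and Pprc1, against 39.4%. The same 3 genes had the isolated-cell Qki-5 peaks (28.6% of genes), and Ppard alone had PPARb there (5.66%). The peaks of Pparg and Ppargc1a counted here lie close to the limit of the window, at 878 to 989 bp.

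Both kinds of isolated-cell peak fell where differentiated cells also had peaks. Each of the 5 Qki-5 peaks lay over one of differentiated cells (69.5% of the whole list did), and both PPARb peaks overlapped an isolated-cell Qki-5 peak (76.3% of the list). Overlapping isolated-cell Qki-5 and PPARb peaks were thus at 2 of 6 genes, Ppard and Pprc1, against 6.13% of all genes and 6.92% of long ones, and the Pprc1 pair is the one next to Nolc1. Pparg, Ppargc1a and Ppargc1b had no isolated-cell peak of either kind. In the isolated-cell PPARb library the threshold was 13 tags, a height of 7.07, and the Ppard peak, with 12 tags and 6.53, was listed just below it. Isolated and differentiated cells also differed in strain, introduced PPARb, input library and share of tags in peaks, and these cannot be told apart.

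Genes whose binding pattern was most like that of each member were sought over the 6 libraries, by the distance between the percentile ranks of their tallest peaks, with 0 where there was no peak. For Ppara these were Nedd4 and Fat1 (distances of 5.93 and 6.62 percentile points), for Ppard Ube2w and Magi3 (9.39 and 10.8), and for Pparg Chmp2b and Hic1 (3.64 and 4.28). For Ppargc1a they were Eml1 and Zfhx3 (6.10 and 6.24), for Ppargc1b Gm11992 and Cfap100 (5.03 and 7.04), and for Pprc1 Cdk11b and 4933430I17Rik (9.89 and 10.7). The Pprc1 profile used the site next to Nolc1 for PPARb in both cell kinds and for Qki-5 and HA in differentiated cells. None of these 12 is a PPAR or PGC-1 gene, and 6 values per gene make this a coarse description.

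Partners, carriers and targets of the receptors and coactivators also carried peaks. Of 41 genes in 5 lists of the pathway, 35 had a Qki-5, 33 a PPARb, 37 an HA and 29 a Pol II peak in differentiated cells, and 19 a Qki-5 and 5 a PPARb peak in isolated cells. The shares over all protein-coding genes were 61.2%, 57.3%, 60.6% and 47.5% in differentiated and 35.7% and 7.57% in isolated cells. Coregulators were covered in full: all 10 had peaks in each of the 4 differentiated-cell lists. Among the RXR partners, Rxra had the tallest PPARb peak at 18.2 and Rxrb the tallest HA peak at 29.3. Of the 11 partners and regulators of PGC-1, 9 had PPARb and 10 HA. Esrrg, a receptor that PGC-1-alpha coactivates, led for PPARb at 18.2 and Yy1 for HA at 30.9, while Kat2a had neither and Gabpa no PPARb peak.

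The lists of lipid carriers and of targets are read against 57.3% of all genes with a PPARb and 60.6% with an HA peak. Of 5 fatty acid-binding protein genes, Fabp7 alone had a PPARb peak, at 17.8, with HA at 36.4, and Fabp1 and Fabp4 had no peak of either antibody. Of 12 classical PPAR targets, 10 had PPARb and 11 HA, and Pdk4 had neither. Angptl4 led for PPARb at 39.2 and Cpt1a for HA at 122.8, above any peak at the receptor and coactivator genes themselves, whose tallest were 23.1 and 30.9 at the site next to Nolc1, and 16.9 and 26.1 without it. Pol II was at 5 of these 12 targets, and isolated-cell PPARb at 1, Angptl4, with 19.

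**Figure D4:**
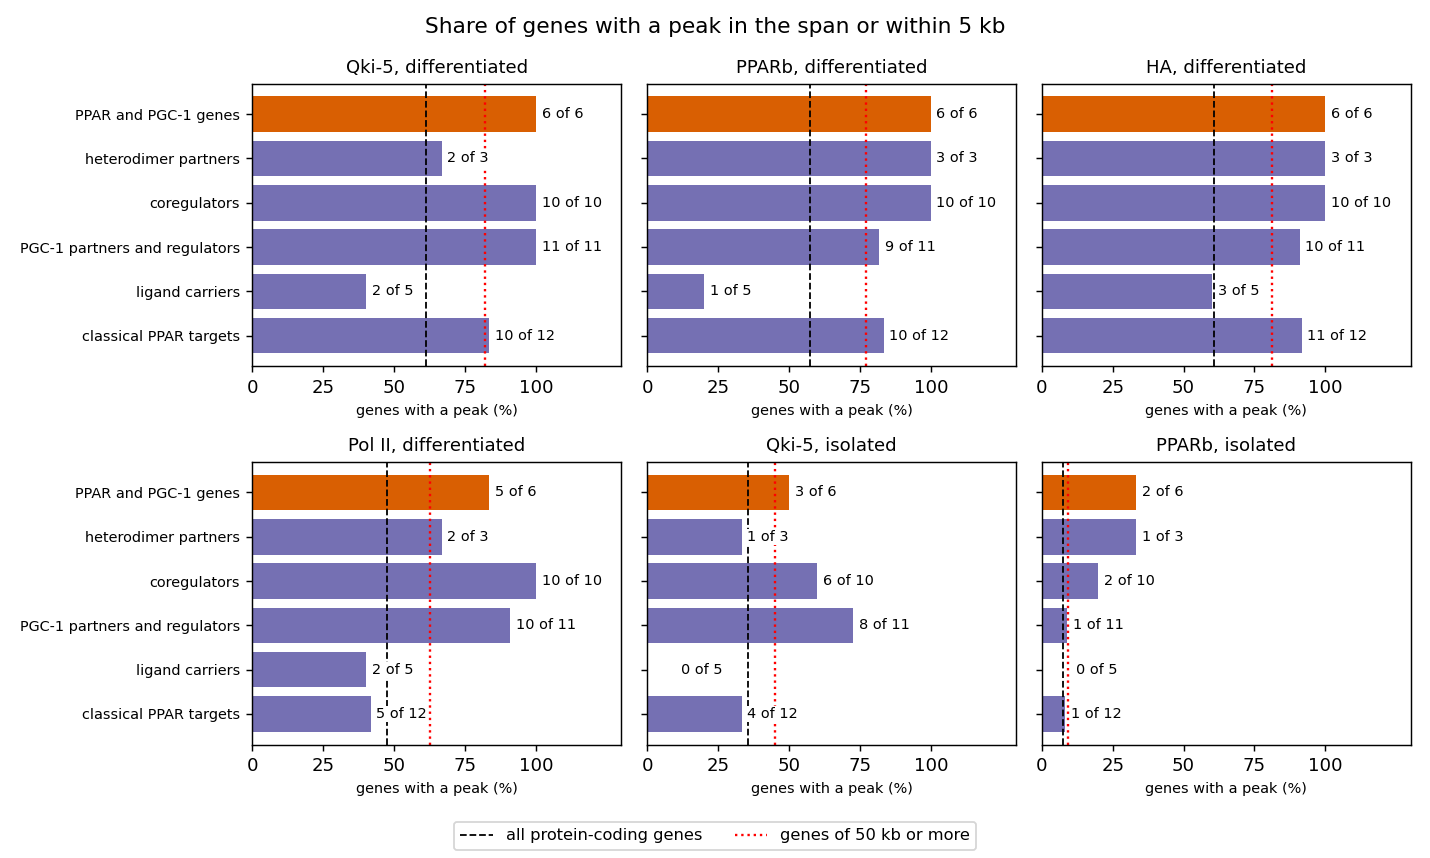
Share of genes with a peak in the span or within 5 kb (horizontal axis, percent) for the 6 PPAR and PGC-1 genes (orange) and 5 pathway lists (purple), in 6 panels by library. Dashed lines mark all protein-coding genes and dotted lines genes of at least 50 kb. Coregulators reach 10 of 10 in each differentiated-cell panel, and ligand carriers lie at 2 of 5 for Qki-5 and 1 of 5 for PPARb.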

How the data were processed

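Each of the 6 antibody libraries had 1 peak list, and the 2 input libraries enter only through the peak caller's values. HOMER findPeaks (factor style) made the lists, per the file headers, with a false discovery rate limit of 0.001 and at least 4-fold enrichment, both against input and against 10000 bp around the peak. The names of the tag directories in the headers show that duplicates were removed. The submitters' processing notes name HOMER 4.10.1, Bowtie 1.2.2, Trim Galore 0.4.4, bcl2fastq 2.19.1.403, SAMtools 1.8 and build mm10. The normalized tag count, used as peak height, is a signal that the authors' caller gives per 10000000 tags. Total tags are raw counts in 4 deposited lists and a signal scaled to the input in 2 lists (PPARb and Pol II, both differentiated), so tag numbers were taken from the height and the library's depth. Fold over input is a ratio made by the authors' peak caller.

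Peaks on chromosomes 1 to 19, X and Y were used. Assignment, overlap (at least 1 bp), ranks within a list and intervals were computed with Python 3.11.15, pandas 2.3.3 and SciPy 1.17.1, and checked on simulated peaks. All 6 members are described. The 2 most similar genes are named for members with peaks in at least 3 libraries, leaving out genes that share a peak with the member, and pathway genes where they lead or lack a PPARb or HA peak. Single genes of the lists that this rule would name are in part not reported here. The members and lists were chosen with earlier results of these data known. Starts and sequences are RefSeq's, and exons were not used here. With 1 library per group no test was run.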

Additional observations from a re-analysis of the deposited data

How the results depend on the processing

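No paired analysis was possible because each group had 1 library and no result comes from a test. Keeping all sequences of the files, a 10 kb window, and for overlaps a minimum of 100 bp or centres within 500 bp left every count within 1.5 times its reported value.

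With the gene span only, differentiated-cell Qki-5 was at 5 members instead of 6, as Pprc1 had no Qki-5 peak centred inside its span. Pol II was then at 3 members instead of 5, and isolated-cell Qki-5 had 2 peaks instead of 5. Isolated-cell PPARb had 0 peaks at 0 members, so its overlap with Qki-5 was at 0. Within 1 kb of the span, isolated-cell PPARb had 1 peak at 1 member, and overlapped Qki-5 at 1. At 8-fold over input the peaks at members fell to 14 for Qki-5, 14 for PPARb and 5 for Pol II in differentiated cells and to 3 for Qki-5 in isolated cells. No isolated-cell PPARb peak was left (0 peaks, 0 members, 0 overlaps with Qki-5), while differentiated-cell Qki-5, PPARb and HA were still at 6 members each.

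Among the 1000 tallest peaks of each list, Qki-5 and Pol II of differentiated cells had 0 peaks at 0 members, and PPARb and HA 1 peak each at 1 member. Isolated-cell Qki-5 had 2 peaks at 1 member, and PPARb, whose whole list holds 1391 peaks, 1 peak at 1. Overlaps were then at 0 members for Qki-5 with PPARb, at 1 for PPARb with HA, and at 1 for the isolated-cell pair. Within 1 kb of a RefSeq start, a setting chosen after the data were seen, as was the background of long genes, Pol II was at 3 members and isolated-cell PPARb at 1. Between 10 and 19 tags lay behind many single peaks, so a missing peak shows only that none was called at this depth. Of 132 recomputed heights of tallest peaks, 7 left the reported interval: PPARb and HA at Pprc1 (11.6 and 15.8) and HA at Pparg (9.51), each with the span only and within 1 kb of it, and Qki-5 at Pparg at 8-fold over input (6.64). Heights were recomputed only where a gene kept a peak, so lost peaks are not among the 132.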
